A study of Arabidopsis thaliana with 40 samples.

Results

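The acidic ribosomal stalk proteins P1 and P2 are the small proteins of the flexible arm on the large subunit of the cytosolic ribosome. In Arabidopsis thaliana they are encoded by 9 loci, 4 for P1 and 5 for P2, of the 33592 loci in the count tables. The loci were chosen by name, as a list of the P1 and P2 genes, and the list was chosen by polysome levels under submergence, which some of its loci had shown to be lower. Every value of these 9 loci that rests on polysome libraries is therefore a description and carries no test. Tests on polysome libraries are given only for other loci. The reference annotation gives all 9 only the family name "60S acidic ribosomal protein family", which 11 loci share; the other 2 encode the related plant protein P3. The division into P1 and P2 follows general knowledge of the family, and the coding sequences fall apart the same way.

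The stalk is built on P0, which sits on ribosomal RNA and binds dimers of P1 and P2. The C-terminal tails of the stalk proteins contact the GTPases of translation, among them the elongation factors eEF1A and eEF2, and stimulate GTP hydrolysis during elongation. The tails are targets of casein kinase 2. In Arabidopsis, mRNAs of ribosomal proteins are known for leaving polysomes when oxygen or energy is short.

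The study compared submerged with dark-kept whole seedlings, all 9 days old, by sequencing total mRNA and mRNA from heavy polysomes, which carry many ribosomes. Seedlings were held under water in the dark for 3 h, or in the dark alone for 3 h, so that darkness was common to all groups. The K48M seedlings overexpressed SnRK1.1 (KIN10, a catalytic subunit of the energy-sensing kinase SnRK1) with the K48M amino acid change in Col-0; the labels give neither the promoter nor the number of lines. Col-0 was the wild type. Of 40 samples in the series, counts of 16 libraries were used here, in 8 groups of 2: K48M and Col-0, polysome and total, submerged and dark. Each group had 1 library in the set ST_FR and 1 in the set LTF_GG. The other 24 samples form a second experiment, on Col-0 and 2 further lines, named below. The series title and text tie these lines to a translation initiation factor. Counts of these 24 samples were not analysed here, and for these lines only folds the authors deposited are given.

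The condition of 2 LTF_GG libraries, both K48M total mRNA, was in conflict. The library titled dark was headed as submerged in the count table, and the library titled submerged was headed as dark. An index the authors deposited lists the pair as the headers do. ADH1 (alcohol dehydrogenase, a gene of the low-oxygen response) measured 1360 CPM (read counts scaled to a common library size) in the library headed as submerged and 30.4 CPM in the one headed as dark. It ran from 1370 to 2780 CPM in the other 7 submerged libraries and from 27.4 to 50.8 CPM in the other 7 dark libraries. By ADH1 each of the 2 libraries was thus near the condition of its header and far from that of its title. Both disputed libraries were still left out, so results below rest on 14 libraries and the K48M total groups on 1 library each. Some results with the pair stand beside them. KIN10 was at 242 to 1450 CPM in K48M, against 27 to 37.6 CPM in Col-0, over these 14 libraries.

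Gene reads came to 3.75 to 5.95 M in polysome libraries and 5.26 to 6.77 M in total libraries. The members took 0.106% to 0.391% of them. Ribosomal RNA loci took 0.87% to 38.12% of a library's reads, the highest share in the dark Col-0 polysome library of ST_FR. Markers of whole seedlings were present: 2 leaf genes (RBCS1A, CAB1) summed to 10100 to 25500 CPM in submerged and 13400 to 29700 CPM in dark polysomes, and to 14300 to 35100 CPM in submerged and 22200 to 42400 CPM in dark total mRNA. Both seed markers had at most 3 reads, VGD1 (pollen) had 0 and SYP124 (pollen) at most 2 in any library. In whole seedlings, fewer cells of a type and less RNA per cell cannot be told apart.

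The members lie on all 5 chromosomes. In assembly TAIR10.1 the P1 loci are AT1G01100 (chr1:49909-51210), AT4G00810 (chr4:345911-347293), AT5G47700 (chr5:19327566-19328986) and AT5G24510 (chr5:8369141-8370119), all on the minus strand and all with 3 coding exons. The P2 loci AT2G27710 (chr2:11816634-11817972), AT2G27720 (chr2:11818230-11819646) and AT3G44590 (chr3:16163709-16164997) are on the plus strand and also have 3 coding exons. AT2G27710 and AT2G27720 are neighbours with 257 bases between them. The remaining P2 loci, AT3G28500 (chr3:10682029-10682979, plus strand) and AT5G40040 (chr5:16029703-16030335, minus strand), have 1 coding exon each.

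Coding sequences of the leading transcript models, 336 to 348 bases long, were 63.5% to 92.4% identical within P1 and 62.6% to 91.4% within P2. Between P1 and P2 identity was 52.3% to 61.2% over 20 pairs, below every pair within a type. AT1G01100 and AT5G47700 were the closest pair of P1 (92.4%), and AT2G27710 and AT2G27720 the closest pair of P2 (91.4%). The longest identical run between spliced transcripts was 65 bases, between AT2G27710 and AT2G27720. The last 27 coding bases, stop codon included, encode the end of the tail that meets the elongation factors. They are shown 5′ to 3′ to let the loci be compared over that end; capitals mark bases that differ from the most frequent base of the 9 loci, and both bases are in lower case at the 1 position where they tie.
AT1G01100: gatTtgggtttcggtttgttTgaCtaa
AT4G00810: gatCtTggtttcggCttgttcgattaG
AT5G47700: gatTtgggtttTggCttgttcgattaa
AT5G24510: gacatgATAAtcggAttAttTgaCtaG
AT2G27710: gacatgggtttcAgtCtAttcgaGtaa
AT2G27720: gacatgggtttcAgtttgttcgaGtaa
AT3G28500: gCAGGCATGAtGggtCtCttTgattGa
AT3G44590: gacatgggAttcAgtCtCttcgaGtaa
AT5G40040: gGtGGAATGAtGAgtCtCttcgattGa
All 9 loci had the same base at 9 of the 27 positions. AT2G27720 departed from the most frequent bases at 2 positions, the single-exon locus AT3G28500 at 14 and the single-exon locus AT5G40040 at 13.

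Promoters were read as the 250 bases before the annotated gene start (RefSeq, TAIR10.1), with the telobox core AACCCTA and the site II core TGGGCC, motifs described for plant ribosomal protein genes, searched on both strands. Site II stood in 4 of 9 member promoters, against 13.7% of 27443 promoters of nuclear protein-coding genes and 55.9% of 145 other cytosolic ribosomal protein loci. The telobox stood in 2 of 9, against 6.6% of all promoters and 26.9% of the other ribosomal protein loci. Only AT4G00810 held both, which 1.3% of all promoters did. The motifs do not overlap in the members. The promoters with the most site II matches, with both motifs and with neither are shown 5′ to 3′, with matches in capitals.
AT1G01100: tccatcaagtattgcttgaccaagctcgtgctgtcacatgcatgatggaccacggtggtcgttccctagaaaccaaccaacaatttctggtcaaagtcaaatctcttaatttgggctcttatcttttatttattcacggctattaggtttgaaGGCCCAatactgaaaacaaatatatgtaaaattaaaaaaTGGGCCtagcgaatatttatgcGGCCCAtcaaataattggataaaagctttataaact
AT4G00810: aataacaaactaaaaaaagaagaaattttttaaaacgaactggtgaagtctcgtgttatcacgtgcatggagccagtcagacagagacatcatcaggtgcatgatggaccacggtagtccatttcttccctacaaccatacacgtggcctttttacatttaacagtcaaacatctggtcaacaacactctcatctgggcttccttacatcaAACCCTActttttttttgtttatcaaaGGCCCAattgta
AT3G44590: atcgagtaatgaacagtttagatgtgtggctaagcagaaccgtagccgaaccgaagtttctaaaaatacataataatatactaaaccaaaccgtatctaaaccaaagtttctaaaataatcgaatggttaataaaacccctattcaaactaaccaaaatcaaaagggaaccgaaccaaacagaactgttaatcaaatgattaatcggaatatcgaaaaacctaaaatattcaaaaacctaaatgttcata
AT1G01100 had 3 site II matches, starting 97, 58 and 36 bases before the gene start, in the window chr1:51211-51460 (minus strand). AT4G00810 had a telobox at 39 bases and a site II at 12 bases (chr4:347294-347543, minus strand). AT3G44590, the member with the lowest total-mRNA fold under submergence, had no match in chr3:16163459-16163708 (plus strand). Of the rest, AT5G47700 had 1 site II match, AT3G28500 had 2, AT5G40040 had 1 telobox, and AT5G24510, AT2G27710 and AT2G27720 had none. A match or its lack says only which letters the window holds.

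Levels of the 9 loci, scaled per length, split into 6 well-covered and 3 scarce genes. Over the 14 libraries AT1G01100 averaged 952 CPM per kb, AT5G47700 905 and AT2G27720 821. Then came AT2G27710 at 503, AT4G00810 at 238 and AT3G44590 at 129 CPM per kb. Ranges of neighbours in this order overlapped among these 6, from 471 to 1720 CPM per kb for AT1G01100 down to 47.1 to 287 for AT3G44590. AT3G28500 averaged 2.03, AT5G24510 1.18 and AT5G40040 1.06 CPM per kb, and no value of these 3 was above 4.83. P1 and P2 each had abundant and scarce members.

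**Figure D1:**
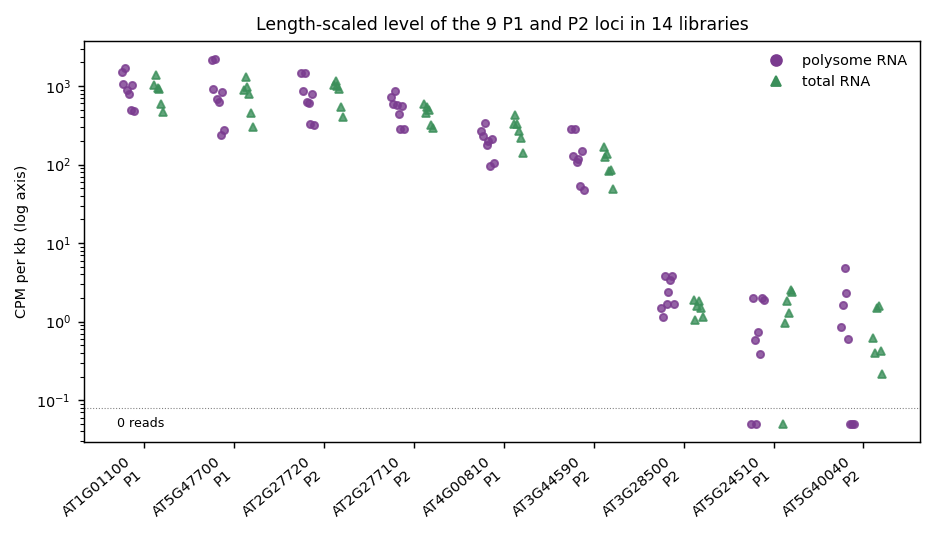
Level in CPM per kb (log axis) of each P1 and P2 locus, 1 point per library, circles for 8 polysome and triangles for 6 total libraries; libraries with 0 reads are at the bottom. The 6 well-covered loci stay at or above 47.1 CPM per kb, and the 3 scarce ones at or below 4.83.

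The scarce loci were close to the limit of detection. AT3G28500 had 2 to 13 reads in each of the 14 libraries, 97 in all. AT5G24510 had 0 to 10 reads, 48 in all, and AT5G40040 0 to 10 reads, 41 in all. AT3G28500 summed to 26 reads in 4 submerged polysome libraries, against 33 reads in 4 dark ones. AT5G40040 summed to 11 reads in submerged and 13 in dark polysomes, and AT5G24510 to 10 in submerged and 8 in dark polysomes. With so few reads no change of these 3 loci could be told from counting error. AT3G28500 passed the filter on low counts, and AT5G24510 and AT5G40040 did not, so 7 members entered the fits.

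In total mRNA no member passed the test for a submergence response. In Col-0, 0 of 7 measured members were called at an adjusted p under 0.05 (edgeR quasi-likelihood test, Benjamini-Hochberg over 19024 loci), with 1 at an unadjusted p under 0.05; DESeq2 also called 0, with 1 unadjusted. Over all loci tested, 7.61% were called higher and 4.72% lower, 12.3% in either direction. The 3 measured P1 loci had log2 folds near 0: 0.08 ± 0.23 (SE) for AT1G01100, −0.10 ± 0.25 for AT4G00810 and −0.02 ± 0.27 for AT5G47700. AT5G47700 had 887 and 206 CPM in submerged Col-0 total mRNA (ST_FR, then LTF_GG), against 604 and 308 CPM in dark Col-0. The sets went opposite ways: within ST_FR the 3 P1 loci had log2 folds of 0.36 to 0.55, and within LTF_GG of −0.61 to −0.31.

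The 4 measured P2 loci had log2 folds below 0 in Col-0 total mRNA without passing the test. AT3G44590 had 85.5 and 32.8 CPM in submerged seedlings, against 114 and 57.8 CPM in dark ones. It was lower within both sets, while the groups overlapped across sets. Its log2 fold was −0.61 ± 0.19 (SE, n = 2 each; edgeR adjusted p = 0.0544), and DESeq2 gave an adjusted p of 0.0593. Scaling by DESeq2's size factors in edgeR gave an adjusted p of 0.0488, leaving out ribosomal RNA and organelle genes 0.0481, and leaving out the submerged ST_FR library 0.0381; over all alternatives it ran from 0.0381 to 0.821. AT2G27720 had a log2 fold of −0.14 ± 0.22 and AT2G27710 of −0.26 ± 0.20 (edgeR adjusted p 0.755 and 0.459). The scarce AT3G28500 had −0.58 ± 0.62 (edgeR adjusted p = 0.622), and it was the only 1 of 7 members with both submerged libraries below both dark ones, beside 20.5% of all loci. The 7 measured members had a median of −0.14, against −0.21 for 136 other cytosolic ribosomal protein loci, 8 of them called lower, and 0.01 for all loci. Both root markers fell beside these values in Col-0 total mRNA, PYK10 (AT3G09260) by a log2 fold of −1.08 ± 0.26 (edgeR adjusted p = 0.0147) and BGLU21 (AT1G66270) by −0.74 ± 0.21 (adjusted p = 0.0345). Their part in the member values was not tested.

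K48M total mRNA was measured in 1 library per condition. Its errors and p-values take the spread from the groups of 2, so each lone library is assumed to vary as those do. No member was called of 7 (edgeR; 1 at an unadjusted p under 0.05; DESeq2 0, and 1 unadjusted), where 3.41% of all loci were called higher and 1.87% lower, 5.28% in either direction. AT3G44590 had 56.1 CPM in the submerged library and 91.6 CPM in the dark one, a log2 fold of −0.71 ± 0.27 (SE; edgeR adjusted p = 0.158). The other 5 well-covered members had log2 folds of −0.31 to −0.04. In the disputed pair AT3G44590 had 68.2 CPM in the library headed as submerged and 127 CPM in the one headed as dark. With the pair added by its headers its log2 fold was −0.85 (edgeR adjusted p = 0.236); with the pair added by its titles it was 0.39 (edgeR adjusted p = 1). Over all alternatives run its adjusted p was 0.151 to 1.

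Responses in total mRNA of K48M and Col-0 were not shown to differ. The difference, K48M minus Col-0, ran from −0.28 ± 0.46 (SE) for AT5G47700 to 0.14 ± 0.35 for AT2G27710 among the 6 well-covered members, each with an edgeR adjusted p of 1. No locus of 19024 was called by edgeR (0%; 487 at an unadjusted p under 0.05, none of them a member), and DESeq2 called 1 locus. The errors leave room for differences of the size of the folds themselves.

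Total levels in K48M and Col-0 were also not shown to differ. In the dark the log2 ratio of K48M to Col-0 was −0.41 ± 0.24 (SE) for AT3G44590 and −0.22 to −0.11 for the other 5 well-covered members, and 0 of 7 members were called by edgeR, with 0 unadjusted and 0 by DESeq2, beside 0.00526% of all loci. Under submergence it was −0.51 ± 0.24 for AT3G44590 and −0.48 to 0.03 for the other 5, again with 0 of 7 called by edgeR, 0 unadjusted and 0 by DESeq2, beside 0.00526% of all loci. These medians turn positive with the disputed pair: by the headers the median of the 7 members was 0.48 under submergence and 0.65 in the dark, and by the titles 0.71 and 0.42. AT5G47700 stood at 641 and 785 CPM in the disputed libraries, and at 161 to 561 CPM in the other 6 LTF_GG libraries.

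On polysomes the 6 well-covered members were all lower under submergence, in both genotypes and within both library sets. AT5G47700, a P1 locus, had the lowest folds. It had 464 and 185 CPM in submerged K48M polysomes (ST_FR, then LTF_GG), against 1490 and 561 CPM in dark K48M polysomes. It had 613 and 161 CPM in submerged Col-0 polysomes, against 1450 and 422 CPM in dark Col-0 polysomes. Both submerged libraries lay below both dark ones in K48M, while in Col-0 the submerged ST_FR library was above the dark LTF_GG library. The log2 folds were −1.64 ± 0.27 in K48M and −1.31 ± 0.27 in Col-0 (SE of the fit, n = 2 each).

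AT1G01100, its closest P1 copy, had 553 and 305 CPM in submerged K48M polysomes, against 1080 and 640 CPM in dark ones. In Col-0 polysomes it had 667 and 312 CPM under submergence, against 955 and 497 CPM in the dark. Groups overlapped only in Col-0, and the log2 folds were −1.02 ± 0.23 in K48M and −0.59 ± 0.23 in Col-0. AT4G00810, the least abundant of the well-covered P1 loci, had 178 and 105 CPM per kb in submerged K48M polysomes, against 343 and 211 CPM per kb in dark ones. It had 230 and 95 CPM per kb in submerged Col-0 polysomes, against 271 and 197 CPM per kb in dark ones. Its fold in Col-0 differed most between the sets, with −0.25 within ST_FR and −1.03 within LTF_GG on the log2 scale; the fit gave −0.98 ± 0.26 in K48M and −0.65 ± 0.26 in Col-0.

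Among P2 loci AT3G44590 had the lowest polysome folds. It measured 73.2 and 31.9 CPM in submerged K48M polysomes, against 196 and 99.7 CPM in dark ones. It measured 86.8 and 36.6 CPM in submerged Col-0 polysomes, against 191 and 78.9 CPM in dark ones. The log2 folds were −1.53 ± 0.20 in K48M and −1.12 ± 0.19 in Col-0. AT3G44590 also had the lowest total-mRNA folds of the members, as given above.

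AT2G27720 had 424 and 212 CPM in submerged K48M polysomes, against 972 and 535 CPM in dark ones. In Col-0 it had 579 and 224 CPM under submergence, against 995 and 407 CPM in the dark. Its log2 folds were −1.27 ± 0.23 in K48M and −0.82 ± 0.22 in Col-0. Its neighbour AT2G27710 had the smallest folds of the 6, −0.78 ± 0.20 in K48M and −0.47 ± 0.20 in Col-0. AT2G27710 had 433 and 215 CPM in submerged K48M polysomes, against 657 and 419 CPM in dark ones, and 439 and 213 CPM in submerged Col-0 polysomes, against 543 and 333 CPM in dark ones. It was the only one of the 6 whose K48M groups overlapped.

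**Figure D2:**
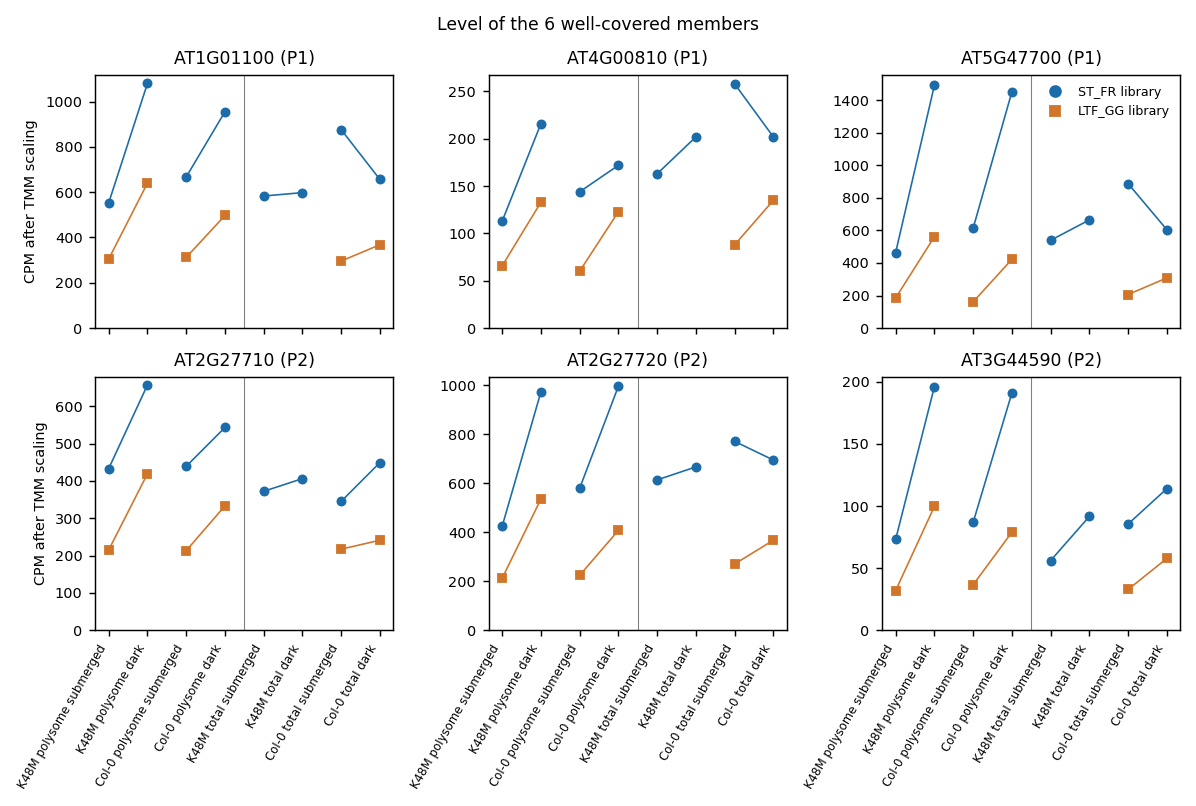
CPM after TMM scaling of the 6 well-covered members by group, 1 point per library; lines join libraries of 1 set, with the disputed pair left out. Every polysome line is lower at the submerged end, and LTF_GG points lie below ST_FR points in each group that shows both sets.

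Counted over the 7 measured members, 6 had both submerged K48M polysome libraries below both dark ones, beside 22.8% of all loci, and 0 did in Col-0, beside 19.5%. These counts rest on the contrast that chose the loci, and nothing is read from them. Median log2 folds of the 7 were −1.14 in K48M and −0.65 in Col-0 polysomes, against −0.76 and −0.56 for the 136 other cytosolic ribosomal protein loci and about 0 for all loci (−0.01 and −0.02). CPM is relative to all mRNA of a library, so a loss shared by most polysomal mRNAs would not show in these folds. The ribosomal RNA share of polysome libraries went opposite ways in the sets, and its part in the member folds was not tested. In ST_FR it was 0.87% in submerged and 6.46% in dark K48M and 2.2% in submerged and 38.12% in dark Col-0, and in LTF_GG 13.12% in submerged and 2.81% in dark K48M and 3.87% in submerged and 2.34% in dark Col-0. Without ribosomal RNA and organelle genes the medians were −1.13 in K48M and −0.65 in Col-0. The root markers were lower beside the members: they summed to 1240 to 2890 CPM in submerged and 2360 to 4070 CPM in dark polysomes, and BGLU21 fell in K48M (−0.87 ± 0.21, edgeR adjusted p = 0.0141) and Col-0 polysomes (−0.79 ± 0.21, adjusted p = 0.0264). PYK10 had −0.73 ± 0.26 in K48M and −0.79 ± 0.26 in Col-0 polysomes (edgeR adjusted p = 0.0769 and 0.0687). Their part was not tested.

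**Figure D3:**
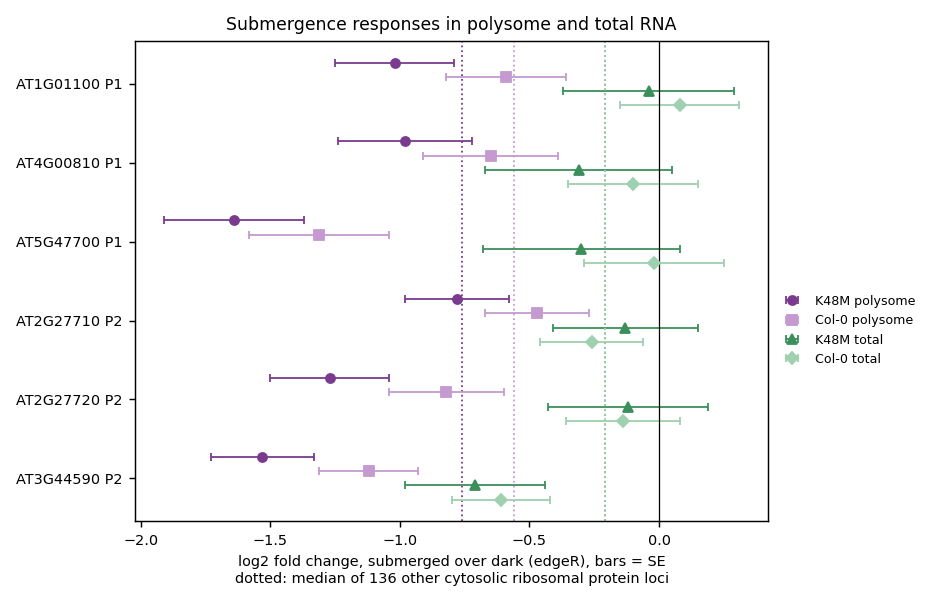
Log2 fold changes of submerged over dark with SE for the 6 well-covered members in polysome and total RNA; dotted lines give medians of 136 other ribosomal protein loci. Polysome folds lie between −1.64 and −0.47, total folds between −0.71 and 0.08.

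Reads of the members were mostly shared between transcript models. Of the reads of the 9 loci, 13.7% to 17.7% matched a single model in ST_FR polysome libraries, 22.2% to 27.9% in LTF_GG polysome libraries and 28.5% to 33.7% in total libraries. By locus the share over all libraries was 8.9% for AT1G01100 with 4 models, 13.3% for AT2G27710 with 4, 12.1% for AT4G00810 with 2, 27% for AT5G47700 with 2, 27.3% for AT3G44590 with 2 and 58.1% for AT2G27720 with 3. It was 100% for the scarce loci, which have 1 model each. The counts do not tell models of 1 locus from close copies, so levels of the copies are uncertain. With single-model reads alone the 6 members were again lower on polysomes in both genotypes, but AT4G00810 had −0.51 in K48M in place of −0.98, and AT2G27710 −0.51 in place of −0.78.

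Set against total mRNA, the 6 well-covered members were lower on polysomes under submergence than in the dark, in both genotypes. In the file headers the 4 ST_FR polysome libraries carry a different lane code from all other libraries. Lane and fraction therefore cannot be told apart within ST_FR, and K48M total mRNA is from ST_FR alone. The log2 ratio of polysome to total was −0.47 to 0.37 in submerged K48M and 0.19 to 1.26 in dark K48M for the 6 well-covered members. In Col-0 it was −0.72 to 0.16 under submergence and −0.17 to 0.83 in the dark. AT5G47700 had the largest span, with −0.08 ± 0.34 (SE) in submerged and 1.26 ± 0.35 in dark K48M, and −0.46 ± 0.27 in submerged and 0.83 ± 0.27 in dark Col-0. AT4G00810 was the one with a value below 0 in dark Col-0 (−0.17 ± 0.26). The polysome response minus the total response had a median of −0.99 in K48M and −0.55 in Col-0 over the 7 measured members, against −0.56 and −0.29 for the other ribosomal protein loci. AT5G47700 was at −1.34 ± 0.46 and −1.28 ± 0.38, and AT2G27710 at −0.66 ± 0.35 and −0.21 ± 0.29, in K48M and Col-0 in that order.

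**Figure D4:**
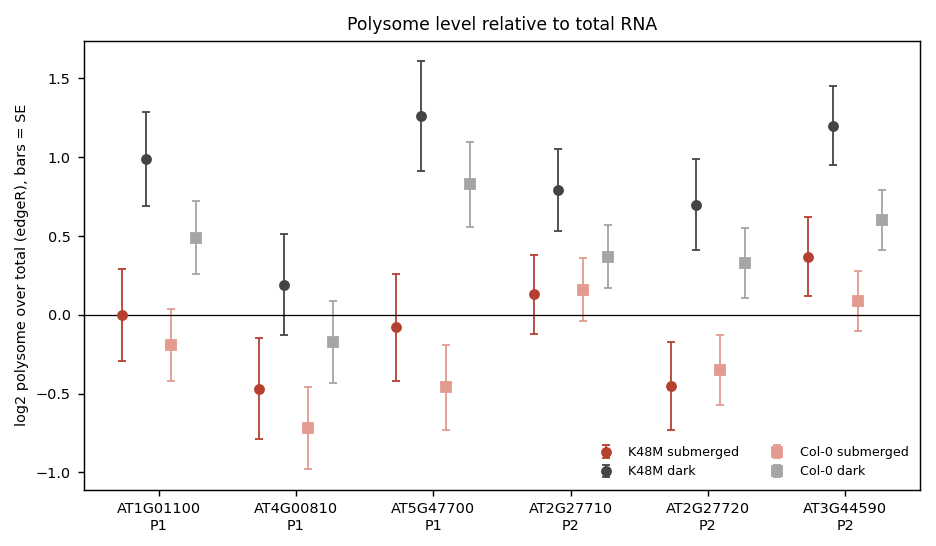
Log2 ratio of polysome to total RNA with SE for the 6 well-covered members in each genotype and condition. Each member is lower under submergence than in the dark, from −0.08 in submerged against 1.26 in dark K48M for AT5G47700 to 0.16 in submerged against 0.37 in dark Col-0 for AT2G27710.

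K48M and Col-0 polysomes were close in these loci. The 6 well-covered members had log2 ratios of K48M to Col-0 of −0.27 to −0.01 under submergence and of 0.19 to 0.30 in the dark, with SE of 0.19 to 0.27. The larger polysome folds in K48M thus came with slightly lower submerged and slightly higher dark values, each within 2 SE. The other ribosomal protein loci had medians of −0.04 under submergence and 0.14 in the dark.

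Summed P1 mRNA was above summed P2 mRNA in every library. The summed length-scaled level of P1 loci was 1.23 to 1.4 times that of P2 loci in 4 submerged polysome libraries, against 1.37 to 1.63 times in 4 dark ones. In total mRNA it was 1.24 to 1.8 times in 3 submerged and 1.26 to 1.35 times in 3 dark libraries. In the disputed pair it was 1.82 times in the library headed as submerged and 1.51 times in the one headed as dark. AT5G47700 alone made up 15.9% to 24.1% of the summed level in submerged polysomes, against 22.5% to 33.4% in dark polysomes. Ranges of the conditions overlapped across sets, but on polysomes both measures were lower under submergence in all 4 pairs of 1 set and genotype. AT5G47700 is part of the P1 sum and had the lowest polysome folds, so the measures are not separate. The other well-covered P1 loci had log2 polysome folds of −1.02 and −0.98 in K48M and −0.59 and −0.65 in Col-0. Those lie within the ranges of the well-covered P2 loci, −1.53 to −0.78 and −1.12 to −0.47. A lower ratio is thus no sign that P1 loci as a type fell more. The P1 to P2 ratio was 1.32 in submerged and 1.63 in dark K48M and 1.40 in submerged and 1.58 in dark Col-0 in ST_FR. In LTF_GG it was 1.33 in submerged and 1.37 in dark K48M and 1.23 in submerged and 1.38 in dark Col-0.

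Members moved together over the 14 libraries once each set's mean was taken off. The Pearson correlation of log2 CPM was 0.96 for AT1G01100 with AT5G47700, the closest copies of P1, and 0.75 for the neighbours AT2G27710 and AT2G27720. Among the 6 well-covered members the lowest was 0.41, for AT4G00810 with AT2G27710. These points share libraries, scaling and, for close copies, reads. The non-member loci most like AT1G01100, the most abundant P1 locus, were AT2G19730 (r = 0.981), AT3G09500 (0.972), AT5G20500 (0.967), AT3G10090 (0.949) and AT1G23290 (0.949). For AT2G27720, the most abundant P2 locus, they were AT3G23830 (0.951), AT5G30510 (0.94), AT5G40950 (0.938), AT1G57860 (0.931) and AT3G02080 (0.93), each over 14 libraries.

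Of 20 measured loci for P0, P3, L12 (the ribosomal protein at the stalk base) and the elongation factors eEF2, eEF1A and eEF1B, edgeR called 2 lower and 1 higher in Col-0 total mRNA, beside 4.72% and 7.61% of all loci. In K48M total mRNA it called 0, with 4 at an unadjusted p under 0.05 and 0 called by DESeq2. Most of the 20 had folds below 0: 19 in K48M polysomes (median −0.88), 17 in Col-0 polysomes (−0.56), 19 in K48M total mRNA (−0.43) and 15 in Col-0 total mRNA (−0.26). In polysome RNA it called 8 lower and 1 higher in K48M, beside 6.22% and 7.73% of all loci, and 4 lower in Col-0, beside 4.55% of all loci called lower and 6.46% called higher. The list of other cytosolic ribosomal protein loci used above leaves out only the members, so it may hold P0, P3 and L12 loci too. P0, the anchor of P1 and P2, had 3 measured loci. AT3G11250 fell in Col-0 total mRNA (log2 fold −1.11 ± 0.23, edgeR adjusted p = 0.00582). It also fell in polysome RNA of K48M (−1.40 ± 0.23, edgeR adjusted p = 0.0013) and Col-0 (−1.07 ± 0.23, edgeR adjusted p = 0.00788). AT3G09200 was more abundant, at 449 CPM in dark Col-0 polysomes against 101 CPM for AT3G11250. Its log2 folds were −0.22 ± 0.38 in K48M and 0.01 ± 0.38 in Col-0 polysomes, and 0.19 ± 0.38 in Col-0 total mRNA. AT2G40010 had −0.19 ± 0.32 in K48M and 0.24 ± 0.32 in Col-0 polysomes, and −0.27 ± 0.27 in Col-0 total mRNA. The P3 locus AT4G25890 fell in polysomes of K48M (−1.53 ± 0.24, edgeR adjusted p = 0.000968) and Col-0 (−1.13 ± 0.24, adjusted p = 0.00788), and in Col-0 total mRNA (−0.84 ± 0.24, adjusted p = 0.0347). The other P3 locus, AT5G57290, had −0.92 ± 0.31 in K48M and −0.65 ± 0.31 in Col-0 polysomes (edgeR adjusted p = 0.0658 and 0.211) and 0.04 ± 0.31 in Col-0 total mRNA (adjusted p = 0.959).

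The authors' deposited table gives log2 folds of 11 transcript models from 8 of the members' loci, also for the lines i4g1-2 and 4A-15 (headed 4SA15), which the series title and text tie to the translation initiation factor eIFiso4G1. The base of these logarithms was inferred from ADH1, at 5.86 in Col-0 total mRNA in the authors' deposited table and 5.42 in the fit above. The authors' index gives 1 library name both for dark Col-0 total mRNA and for dark Col-0 polysomes, and the title of that library says polysome, so which libraries entered the Col-0 total folds is uncertain. In the authors' deposited table the 11 models ran from −3.52 to −1.66 in K48M polysomes, −3.39 to −1.12 in i4g1-2, −2.05 to −0.74 in 4A-15 and −2.64 to −0.76 in Col-0. The medians of all 8391 models there were −1.51, −0.94, −1.01 and −0.29, and 11, 11, 9 and 11 member models lay below them. Polysome levels under submergence chose the loci, and the 11 models share 8 loci, so nothing is read from these counts. The −3.52 and −3.39 are of AT1G01100.3, while AT1G01100.2 held 96.2% of that locus's reads in the 16 libraries counted. The −2.64, −0.76 and −0.74 are of the scarce loci AT5G40040 and AT3G28500. In total mRNA the authors' deposited table has member medians of −0.20 in K48M, −0.12 in i4g1-2, 0.01 in 4A-15 and −0.16 in Col-0. The medians of all models there were −0.10, −0.08, −0.06 and −0.13, with 9, 8, 4 and 6 of the 11 member models below them.

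AT5G47700.1 stood at −3.04 in K48M, −2.04 in i4g1-2, −2.05 in 4A-15 and −1.41 in Col-0 polysomes in the authors' deposited table. AT3G44590.1 stood at −2.85, −1.64, −1.53 and −1.34 there, in the same order. It was also the model of a well-covered locus with −0.75 to −0.55 in total mRNA of all 4 genotypes in the authors' deposited table. These folds carry no error here, and part of their libraries are those described above.

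**Figure D5:**
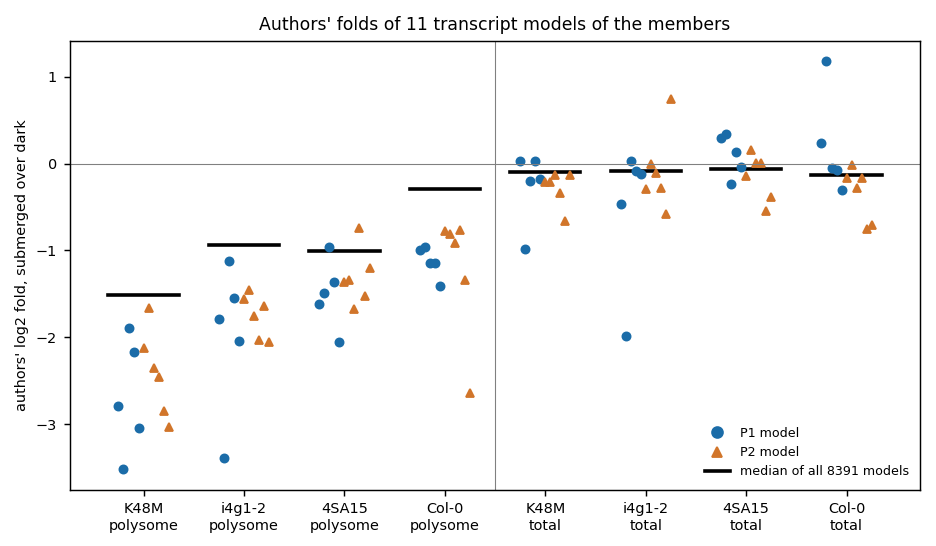
Log2 folds of submerged over dark for 11 transcript models of P1 (circles) and P2 (triangles) loci in the authors' deposited table, by genotype and fraction; black bars are medians of all 8391 models. Polysome values lie between −3.52 and −0.74, total values between −1.98 and 1.18. AT1G01100.3, not the leading model of its locus, gives −3.52, −1.98 and 1.18, and the scarce AT3G28500 gives −0.74.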

How the data were processed

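Libraries of total mRNA and heavy polysome RNA were sequenced on an Illumina HiSeq2000, per the labels' protocols. The authors deposited read counts per transcript model, as all reads and as reads matching 1 model, per the file headers, from trimmed paired reads. The submitters' processing notes name TAIR10. For aligner and strandedness: not given in the sources used here. A second deposited table holds the authors' log2 fold changes and p-values (EDGE test, per the file headers); only the folds were used.

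Counts of 41660 models were summed to 33592 loci. Each table has 11 rows without an identifier, 0.00444% to 0.00839% of a library's reads, left out. Loci passing filterByExpr (minimum count 10, minimum total 15) over the 8 groups of all 16 libraries (19024) were fitted in edgeR 4.0.16 (R 4.3.3) with glmQLFit and glmQLFTest, TMM scaling (factors 0.558 to 1.311), group terms plus 1 for library set, on 14 libraries with 5 residual degrees of freedom. Adjusted p-values are Benjamini-Hochberg over all 19024 loci. Standard errors were derived from each log2 fold and its F statistic. CPM is TMM-scaled; per-kb values divide each model's counts by its length. The fit was tested on simulated data. DESeq2 1.42.0, other scalings, single-model reads, both readings of the disputed pair and each library left out served as alternatives.

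Deviations from group means correlated between libraries of 1 set in all 15 pairs checked (r 0.32 to 0.64 over 19024 loci), and the labels give the sets, so the set is the replicate block. The series text calls the repeats independent biological ones; p-values measure the spread between these libraries. Sequences come from RefSeq (TAIR10.1), aligned with Biopython 1.88; the annotation supplied gene starts. Members, lists and tests were chosen with earlier results of these data known. All 9 members are named; the 5 loci most like the most abundant P1 and P2 locus are named by correlation, and stalk partners, elongation factors, casein kinase 2, GCN2 and markers from a list. Counts of the second experiment of the series were not analysed here, and protein sequences, planned for comparison, were not used here.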

Additional observations from a re-analysis of the deposited data

How the results depend on the processing

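Polysome folds of the 6 well-covered members were below 0 in all 144 values from the alternatives run. The alternatives refit the same libraries, and the contrast is the one that chose the loci, so nothing is read from this count. The median polysome fold of the 7 measured members ran from -1.17 to -1.06 in K48M and from -0.88 to -0.56 in Col-0 when single libraries were left out. In Col-0 total mRNA the count of called members, 0, became 1 (AT3G44590) with DESeq2 size factors, without ribosomal RNA and organelle genes, and ranged from 0 to 1 when single libraries were left out; the reported edgeR adjusted p was 0.0544.

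The median of K48M over Col-0 in total mRNA depended on the libraries used. In the dark it was -0.18 (-0.35 to -0.13 when single Col-0 libraries were left out), against 0.65 with all 16 libraries by the column headers, 0.42 by the sample titles and 0.23 without the replicate block. Under submergence it was -0.34, against 0.48 by the headers, 0.71 by the titles, -0.01 without the replicate block and -0.02 with single-model reads, and it ran from -0.57 to 0.08 when single Col-0 libraries were left out, 0.08 being the value without the submerged ST_FR library. The cause was not tested. Without the replicate block no member was called in any tested comparison, and the polysome medians were -1.15 in K48M and -0.57 in Col-0.

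Leaving out a K48M total library could not be run, since its group holds 1. Single-library pairs, reads shared between copies and 5 residual degrees of freedom limit the precision, and counts of at most 13 reads limit the 3 scarce loci.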

Other observations

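Casein kinase 2, which phosphorylates the stalk tails, had median log2 folds of submerged over dark above 0 over its 8 measured subunit loci. The medians were 0.19 in K48M polysomes, 0.13 in Col-0 polysomes, 0.24 in K48M total mRNA and 0.07 in Col-0 total mRNA. In Col-0 total mRNA 3 of the 8 loci had folds below 0. Of the 8, edgeR called 0 in K48M polysomes, in Col-0 polysomes and in Col-0 total mRNA. Beside this, 13.9%, 11% and 12.3% of all loci were called in either direction, in that order. GCN2 (AT3G59410), a kinase that slows translation initiation and is known to be activated by the stalk in other eukaryotes, had log2 folds of 0.29 ± 0.24 in K48M and 0.55 ± 0.25 in Col-0 polysomes (SE), with edgeR adjusted p of 0.477 and 0.187. In total mRNA it had -0.36 ± 0.35 in K48M and 0.26 ± 0.23 in Col-0 (edgeR adjusted p 0.628 and 0.531).

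The elongation factor eEF1B locus AT5G12110 went the other way from the members. Its log2 fold was 1.48 ± 0.25 in K48M polysomes (edgeR adjusted p = 0.00177) and 1.15 ± 0.24 in Col-0 total mRNA (adjusted p = 0.00671). Its value was 0.73 ± 0.26 in Col-0 polysomes (edgeR adjusted p = 0.0937). AT5G19510, another eEF1B locus, fell in K48M polysomes (-1.14 ± 0.27, edgeR adjusted p = 0.012).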
